A study of Arabidopsis thaliana with 9 samples.

Results

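In rosette leaves of Arabidopsis thaliana, 72 genes were highest in untreated plants, lower in mock-treated plants and lowest in plants treated with the leaf-spot fungus Alternaria brassicicola. They were picked from their own read counts. A gene was taken when its mean level in untreated leaves was at least 5 counts per 1000000 reads in genes (CPM), was at least 2 times the mock mean, and the mock mean was at least 1.7 times the Alternaria mean. The library values of neighbouring groups also had to lie apart without overlap. Of 33610 genes listed, 14202 reached 5 CPM in untreated leaves and 72 of these met both steps. Because these same counts chose the genes, their levels are given below as a description and carry no test.

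All plants were of the Col-0 accession, grown on soil in high humidity with 8 h of light at 22 °C for 5 to 6 weeks. Messenger RNA was sequenced from 3 untreated, 3 mock-treated and 3 Alternaria-treated libraries. The fungus, strain MUCL 20297, was sprayed as a suspension of 1000000 spores per ml with 0.01% Silwet L 77, a wetting agent, and leaves were taken after 3 days. The labels do not give the content of the mock liquid, nor the hour of day at which any group was harvested, nor the harvest day of the mock and untreated plants. They call the libraries biological replicates without saying whether each came from separate plants or a pool.

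Rosette leaves carry out photosynthesis and move water, nitrogen, sulphur and metals to growing tissue. Many leaf genes follow the circadian clock, in which the morning-expressed MYB factors CCA1 and LHY repress evening genes such as TOC1, and light signals act through bZIP factors such as HY5 and through B-box zinc-finger proteins. Alternaria brassicicola is a necrotroph, a fungus that kills leaf cells and feeds on them, and defence of Arabidopsis against it is known to rely on jasmonate and on camalexin.

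The first step, from untreated to mock, was met by 255 of the 14202 genes at 5 CPM (1.8%), and the second step, from mock to Alternaria, by 1188 (8.37%). The 72 genes that met both were 0.507%. The mirrored rule, rising in both steps, was met by 294 genes. Its minimum of 5 CPM was set on the Alternaria mean, so it drew on another set of genes than these 14202. The size of that set was not recorded, so the 294 has no share to set beside the 0.507%. All 72 were protein-coding genes of the nuclear chromosomes, and all 72 passed the low-count filter of the tests used below. The reference annotation gave 35 of them a symbol and 37 only a locus name. Together they held 0.908 to 1.05% of the reads in genes in untreated libraries, 0.354 to 0.3997% in mock libraries and 0.158 to 0.168% in Alternaria libraries. The median member stood at 30.1 CPM in untreated leaves (range of means 5.20 to 1670), 11.8 CPM in mock leaves (0.693 to 693) and 5.26 CPM in Alternaria leaves (0.182 to 321). Most members thus lay well above the detection floor of 3 counts, which is 0.0832 to 0.132 CPM per library and covers counting error only, though 12 had an Alternaria mean under 1 CPM.

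**Figure D1:**
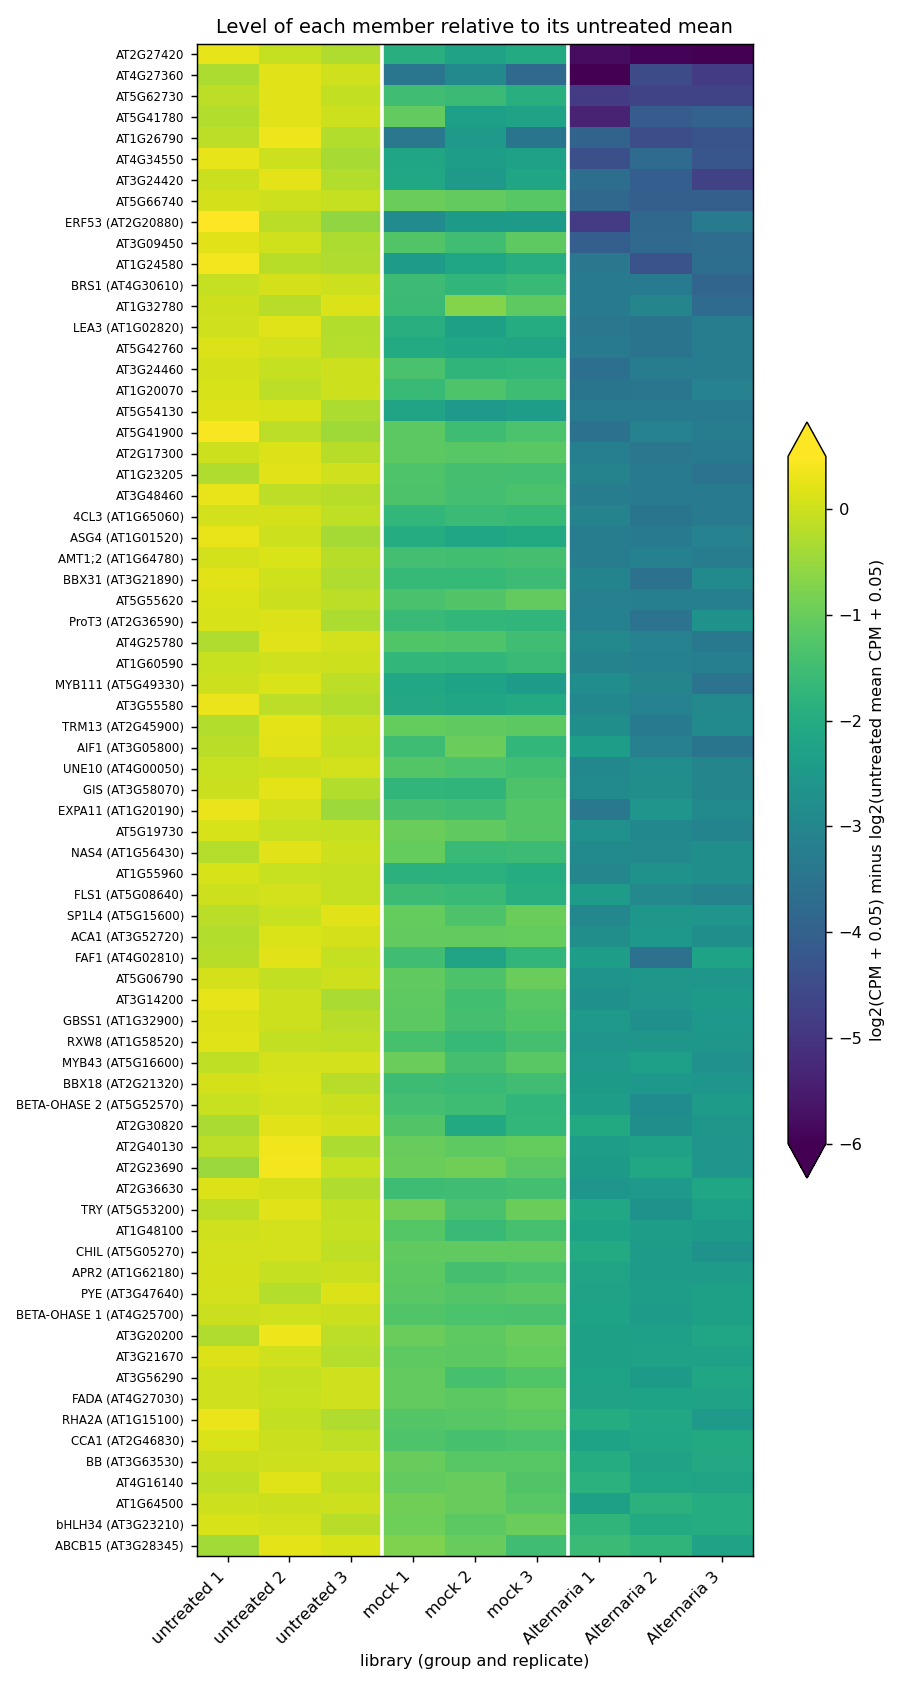
Each row is 1 of the 72 genes and each column 1 of the 9 libraries; colour gives log2(CPM + 0.05) minus log2 of the gene's untreated mean CPM plus the same pseudocount, with values past either end of the scale shown in its end colour. Rows are sorted from the largest to the smallest ratio of untreated to Alternaria mean, from 60.8 in AT2G27420 to 3.57 in ABCB15, and the colour changes at each white line between groups.

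The steps were of similar size over the set. These sizes depend on the limits of 2-fold and 1.7-fold, which the same means had to pass. The ratio of untreated to mock mean had a median of 2.59 (2.03 to 10.8), the ratio of mock to Alternaria mean a median of 2.57 (1.71 to 14.5), and over both steps the median ratio was 7.64 (3.57 to 60.8). The first step was the larger in 36 members and the second in the other 36. Over both steps 70 members differed at least 4-fold, 18 at least 10-fold and 1 at least 50-fold. The lowest untreated library stood a median of 2.05 times above the highest mock library, and the lowest mock library 2.06 times above the highest Alternaria library, and the narrowest gaps were 1.28 times in ABCB15 for the first step and 1.00 times in AT2G30820 for the second.

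The members nearest the limits were close to genes left out. On the level limit, AT1G32780 (5.20 CPM untreated) and FAF1 (5.42 CPM) were just inside, and AT3G30460 (4.72 CPM) and ADS1 (4.86 CPM) just outside. On the ratio of untreated to mock, bHLH34 and AT2G23690 were inside at 2.03 each, while AT4G25830 at 1.99 and AT1G70985 at 1.96 were outside. On the ratio of mock to Alternaria, ABCB15 at 1.71 and CCA1 at 1.75 were inside, while AT1G66540 at 1.697 and AT3G55646 at 1.695 were outside.

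**Figure D2:**
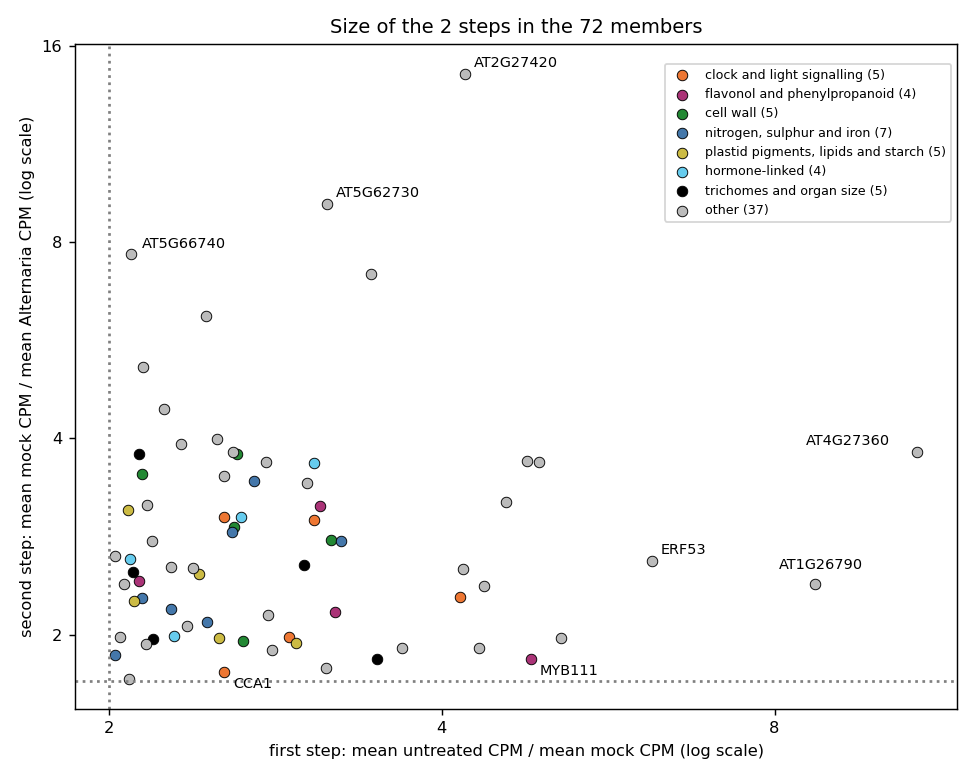
Each point is 1 of the 72 genes; the x axis is the ratio of mean untreated to mean mock CPM and the y axis the ratio of mean mock to mean Alternaria CPM, both on log scales, with dotted lines at the limits of 2 and 1.7. Colours give the functional groups used in the text, which were made after the members were known. AT2G27420 is highest on the y axis at 14.5 and AT4G27360 farthest right at 10.8.

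The largest overall difference belonged to AT2G27420, annotated as a cysteine proteinase, on chr2:11726134-11727654 of the minus strand (gene position in the RefSeq TAIR10.1 annotation, as for all positions below). It had 261, 207 and 180.0 CPM in the untreated libraries, 56.5, 45.1 and 52.6 CPM in the mock libraries and 3.88, 3.50 and 3.27 CPM in the Alternaria libraries. No library of any group overlapped another group, and the second step, 14.5-fold, exceeded the first, 4.20-fold. AT5G62730, a transporter of the major facilitator superfamily, had 14.6, 18.9 and 15.2 CPM in the untreated libraries, 5.72, 5.41 and 4.30 CPM in the mock libraries and 0.504, 0.589 and 0.591 CPM in the Alternaria libraries. Here too the second step was the larger, at 9.16-fold against 3.15-fold. AT5G66740, a gene of unknown function with a DUF620 domain, gave 26.6% of its log2 difference in the first step, the lowest share of the set, with means of 21.2 ± 1.12, 10.1 ± 0.884 and 1.32 ± 0.117 CPM in untreated, mock and Alternaria leaves (mean ± SD, n = 3 per group here and below).

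Other members were lowered mainly in the first step. AT4G27360, a dynein light chain type 1 protein, had 6.03, 8.67 and 7.68 CPM in the untreated libraries, 0.642, 0.937 and 0.499 CPM in the mock libraries and 0.0593, 0.277 and 0.209 CPM in the Alternaria libraries. Its mock libraries were already under 1 CPM and its lowest Alternaria value was below the floor, so its second step rests on few reads. AT1G26790, a Dof-type zinc-finger factor, had means of 7.88 ± 1.76, 0.905 ± 0.388 and 0.378 ± 0.0853 CPM, 8.71-fold in the first step and 2.40-fold in the second. ERF53, a transcription factor of the AP2/ERF family, had 10.8, 6.54 and 4.98 CPM in untreated leaves, a wide spread, and 0.977, 1.32 and 1.30 CPM in mock leaves. Its untreated libraries still lay above every mock library, and its Alternaria mean was 0.463 ± 0.245 CPM.

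The rest of the 12 members with the largest overall ratio were mostly genes of low level. The F-box gene AT4G34550 (18.0-fold over both steps) and the alpha/beta-hydrolase AT3G24420 (17.7-fold) had nearly the same first step, 4.89-fold and 4.78-fold. AT5G41780, a myosin heavy chain-like gene (24.7-fold), AT3G09450, of a fusaric acid resistance family (15.1-fold), and the RING/U-box gene AT1G24580 (14.6-fold) all had untreated means under 13 CPM. The Alternaria libraries of AT5G41780 stood at 0.0889, 0.277 and 0.313 CPM, the first at the floor of 3 counts. Its ratio thus rests on few reads. BRS1, a serine carboxypeptidase known from brassinosteroid signalling, was the most strongly represented of the 12 after AT2G27420, with means of 95.8 ± 5.44, 31.3 ± 1.95 and 8.53 ± 1.77 CPM.

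At the upper end of the levels were APR2 and GBSS1. APR2, the 5'-adenylylsulphate reductase at the committed step of sulphate assimilation, had 1752, 1572 and 1609 CPM in the untreated libraries, 744, 618 and 650.3 CPM in the mock libraries and 355, 304 and 303 CPM in the Alternaria libraries. GBSS1, the granule-bound starch synthase that makes amylose, had 1857, 1689 and 1465 CPM in the untreated libraries, 763, 622 and 693 CPM in the mock libraries and 299.7, 253 and 288 CPM in the Alternaria libraries. Per length of exon, APR2 was the higher, at 802 RPKM, which is CPM per kilobase of exon, against 729 RPKM for GBSS1 in untreated leaves, and the members next in order were AT3G56290 at 383 RPKM and AT1G55960 at 371 RPKM. AT1G55960, of a polyketide cyclase and lipid transport family, had means of 709.6 ± 44.5, 193 ± 9.93 and 101 ± 10.6 CPM, a first step of 3.68-fold and a second of 1.91-fold. AT3G56290, annotated as a potassium transporter (407 ± 16.0, 173 ± 20.1 and 83.8 ± 9.19 CPM), and AT2G36630, of the TauE/SafE sulphite exporter family (334 ± 52.2, 119 ± 2.83 and 62.8 ± 10.4 CPM), had more even steps.

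Of the library facts that follow, the plastid share and the epidermis marker sum were lower at each step without overlap, as these genes were. The reads in genes and the other marker sums were not. Reads in genes numbered 22713147 to 36061529 per library, and the plastid genome took 4.66 to 5.97% of them in untreated, 3.51 to 4.34% in mock and 2.66 to 3.22% in Alternaria libraries. The summed level of 5 epidermis markers was 927 to 1034 CPM in untreated, 723 to 778 CPM in mock and 516 to 574 CPM in Alternaria libraries, also in steps without overlap. The 4 mesophyll markers summed to 41217 to 45718, 38883 to 41932 and 21180 to 23532 CPM, and the 7 guard cell markers to 2076 to 2749, 1848 to 2568 and 1098 to 1475 CPM. The 6 markers of dividing cells summed to 36.2 to 48.3 CPM in untreated, 23.2 to 25.5 CPM in mock and 22.2 to 25.9 CPM in Alternaria libraries. The 7 markers of vessels and companion cells summed to 176 to 216, 128 to 157 and 144 to 163 CPM. The 6 root markers summed to 14.2 to 15.3, 11.1 to 13.8 and 9.81 to 11.7 CPM, and the 5 flower markers to 3.62 to 4.29, 3.77 to 6.52 and 2.91 to 3.91 CPM. No marker was at 0 in all libraries. The part of these shifts in the levels of the 72 genes was not tested, and in whole leaves fewer cells of a type and less RNA per cell cannot be told apart.

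Genes outside the set were tested with edgeR's quasi-likelihood test at a Benjamini-Hochberg adjusted p under 0.05 over 22019 genes. Against untreated leaves, mock leaves had 14.1% of tested genes lower and 15.1% higher, that is 3110 and 3332 genes; the second number became 2119 without untreated replicate 2. Against mock leaves, Alternaria leaves had 26.1% lower and 29.5% higher, that is 5752 and 6489 genes, which became 8114 and 4937 under upper-quartile scaling, a scaling that moved the median log2 change of all genes from -0.02 to -0.20. Between Alternaria and untreated leaves 31.8% were lower and 33.1% higher in Alternaria leaves, that is 7001 and 7287 genes, which became 9234 and 5549 under upper-quartile scaling. The counts of related genes that follow are to be read against these shares, and both comparisons share the mock libraries.

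Clock and light genes were the functional group with the highest median share of the log2 difference in the first step, 61.0%. Its 5 genes ran from 45.6% in UNE10 to 63.2% in ASG4, and flavonol and phenylpropanoid genes came next at a median of 54.9%. The groups were small and made after the members were known, and their order was not tested. CCA1, the MYB factor of the morning part of the clock, on chr2:19245591-19248915 of the plus strand, had 621, 561 and 527 CPM in the untreated libraries, 231, 217 and 224 CPM in the mock libraries and 121, 126 and 136 CPM in the Alternaria libraries. Its groups lay far apart at the first step (2.54-fold) and closer at the second (1.75-fold). ASG4, a MYB-like relative of CCA1, had 56.6, 46.7 and 35.4 CPM in the untreated libraries, 11.8, 10.4 and 11.2 CPM in the mock libraries and 4.80, 4.51 and 5.29 CPM in the Alternaria libraries, and its untreated libraries spread more widely, relative to their mean, than those of CCA1. The B-box genes BBX18 (148 ± 17.1, 50.7 ± 2.00 and 25.6 ± 1.26 CPM) and BBX31 (14.3 ± 2.33, 4.68 ± 0.201 and 1.56 ± 0.343 CPM) and UNE10, a bHLH factor related to the phytochrome-interacting factors (71.3 ± 2.68, 28.1 ± 2.20 and 9.26 ± 0.740 CPM), were the other members. The median first step of these 5 genes was 2.91-fold and the median second step 2.29-fold, and the first was the larger in 4 of 5, all but UNE10.

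Of 12 other morning clock genes tested, 10 fell from untreated to mock, and 7 fell and 2 rose from mock to Alternaria. LHY, the partner of CCA1, fell in both, with log2 changes of -1.41 ± 0.08 and -0.68 ± 0.08 (± SE; edgeR, Benjamini-Hochberg adjusted p = 5.91e-07 and 1.32e-05). Its values were 705, 709 and 627 CPM in the untreated libraries, 276, 267 and 246 CPM in the mock libraries and 160.0, 176 and 172 CPM in the Alternaria libraries, with no overlap, so that it missed the set only because its second step was under 1.7-fold. PRR9 and LNK2 (AT3G54500), also morning genes, fell in both comparisons too, with log2 changes of -1.01 and -0.73 for PRR9 and -1.11 and -0.66 for LNK2 (all edgeR adjusted p under 0.05). RVE8 fell at the first step (log2 -1.44 ± 0.09) and had log2 -0.16 ± 0.09 at the second (edgeR, Benjamini-Hochberg adjusted p = 0.147; log2 -0.33 and past the threshold under upper-quartile scaling). RVE1 fell (log2 -2.03) and then rose (log2 0.69).

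For evening clock genes the counts were smaller. Of 12 tested, 3 fell and 1 rose from untreated to mock, and 1 fell and 4 rose from mock to Alternaria. GI fell (log2 -1.61 ± 0.12) and then rose (log2 0.49 ± 0.12), and TOC1, the evening repressor, had log2 -0.06 ± 0.11 at the first step and rose at the second (log2 1.49 ± 0.11; edgeR, Benjamini-Hochberg adjusted p = 1.86e-07). TOC1 read 10.7, 12.2 and 11.2 CPM in the untreated libraries, 12.03, 10.8 and 10.8 CPM in the mock libraries and 31.0, 29.2 and 37.0 CPM in the Alternaria libraries, so only the Alternaria libraries stood apart. ELF3 and PRR5 rose as well in Alternaria leaves, with log2 changes of 0.75 and 1.03. The difference between the morning and evening lists was not tested.

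Among 20 light-induced and UV-B genes, none of them a member, 14 fell and 2 rose from untreated to mock, whereas 5 fell and 6 rose from mock to Alternaria (10 and 3 under upper-quartile scaling). Without untreated replicate 2, mock replicate 2 or mock replicate 3 only 1 rose at the first step, and at the second 3 fell without Alternaria replicate 1 and 3 rose without mock replicate 1. HY5, the bZIP factor of light signalling, had 54.1, 50.2 and 44.1 CPM in the untreated libraries, 12.5, 13.4 and 13.2 CPM in the mock libraries and 13.4, 11.3 and 15.8 CPM in the Alternaria libraries. Its fall at the first step was log2 -1.96 ± 0.12 (edgeR, Benjamini-Hochberg adjusted p = 8.82e-07), and the mock and Alternaria libraries overlapped. HYH, its homologue, fell at the first step (log2 -1.99) and had an adjusted p of 0.409 at the second (edgeR, Benjamini-Hochberg), and SIG5 (SIGE), a plastid sigma factor, fell at the first (log2 -1.91). RUP2, a repressor of the UV-B receptor, fell in both (log2 -1.56 and -0.55), while PIF4, a growth-promoting bHLH factor, rose at the first step (log2 1.31). Of 25 other B-box genes 10 fell and 8 rose at the first step and 12 fell and 5 rose at the second (2 rose under upper-quartile scaling). The 8 became 5 without untreated replicate 2 and 4 without mock replicate 2. BBX25 (STH) fell in both (log2 -0.98 and -1.23), as did BBX19 (log2 -1.68 and -0.69), whereas BBX27 rose at the first step (log2 2.01).

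**Figure D3:**
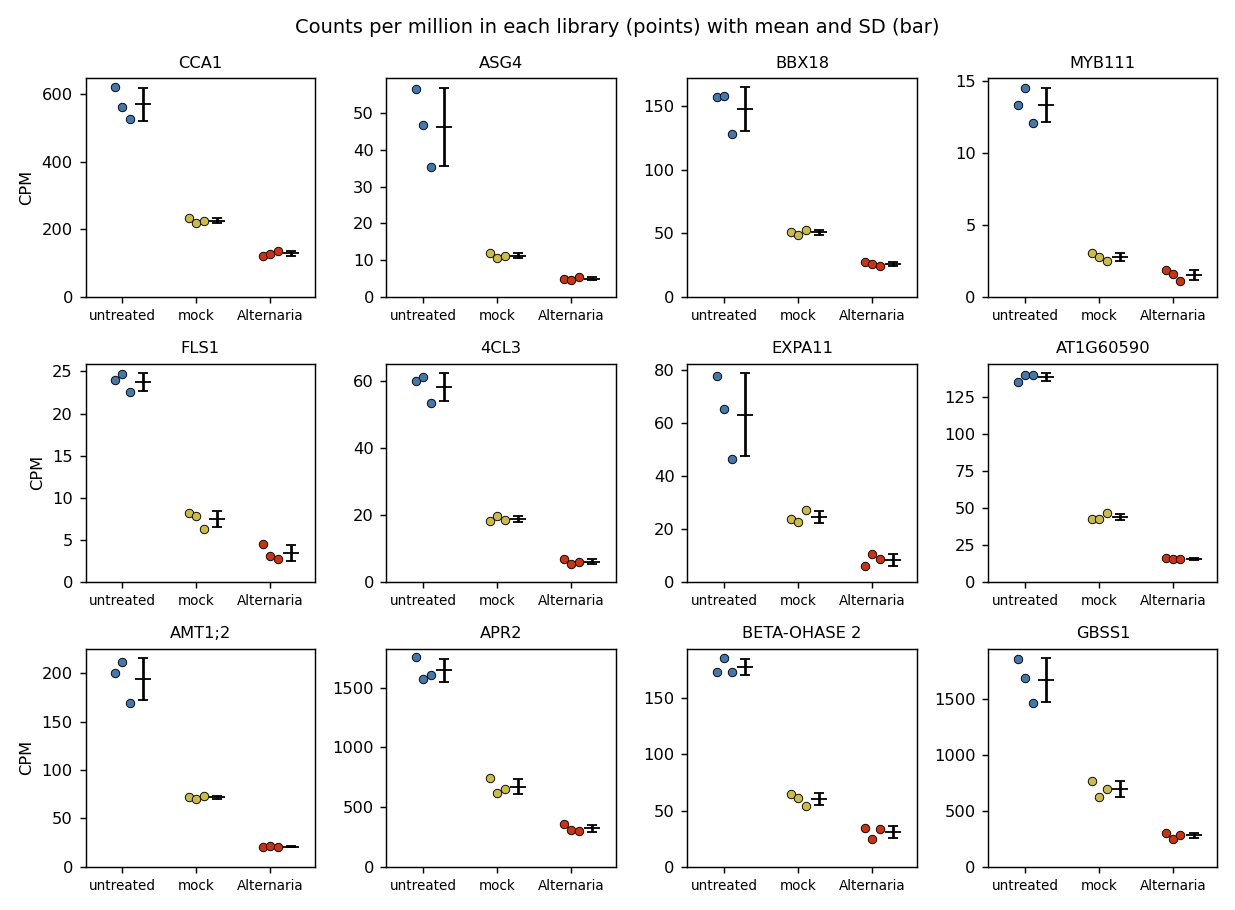
CPM in each of the 3 libraries per group for 12 of the 72 genes, with the mean and SD beside the points; each panel has its own scale starting at 0. In every panel the untreated points lie above the mock points and these above the Alternaria points, as the choice of genes requires, with the widest untreated spreads, relative to the mean, in ASG4 and EXPA11.

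Short motifs were counted in the promoter windows of the members, from 250 bases before to 50 bases after each gene's start in RefSeq TAIR10.1, on both strands. The evening element, AAAATATCT, to which CCA1 is known to bind, stood in 5 of 72 windows (6.94%), against 2.99% of the 20626 windows of tested nuclear protein-coding genes. The related CCA1-binding site AAAAATCT stood in 5 windows (6.94%, against 8.14%). The stretches that hold an evening element are shown because CCA1 itself is a member, with the element and the CCA1-binding site, on either strand, in capitals:
ERF53 (chr2:8985864-8985912, plus strand): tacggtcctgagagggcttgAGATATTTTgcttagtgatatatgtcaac
AIF1 (chr3:1726901-1727108, plus strand): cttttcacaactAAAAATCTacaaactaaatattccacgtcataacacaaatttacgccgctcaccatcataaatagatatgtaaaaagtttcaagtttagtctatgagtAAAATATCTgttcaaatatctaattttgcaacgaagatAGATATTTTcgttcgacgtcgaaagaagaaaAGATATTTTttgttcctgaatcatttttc
FLS1 (chr5:2803658-2803706, plus strand): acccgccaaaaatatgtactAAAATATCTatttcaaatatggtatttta
AT3G14200 (chr3:4714801-4714849, minus strand): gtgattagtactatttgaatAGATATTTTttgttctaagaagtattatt
SMXL8 (chr2:16765601-16765649, plus strand): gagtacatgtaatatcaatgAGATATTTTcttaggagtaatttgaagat
The AIF1 stretch held 3 evening elements and a CCA1-binding site, and the other 4 held 1 evening element each. Their steps were close to those of the rest, with a median first step of 2.63-fold against 2.59-fold in the 67 members without the element and a median second step of 2.59-fold against 2.56-fold.

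The G-box CACGTG, a site of bZIP and bHLH factors such as HY5 and the phytochrome-interacting factors, stood in 10 member windows (13.9%, against 8.56% of tested genes). The abscisic acid response element ACGTGG stood in 16 (22.2%, against 10.7%). These motifs share letters: 7 members held both, overlapping in all 7, and 19 members held either (26.4%, against 14.5%). The stretches upstream of the start in 5 members discussed here are shown with either motif in capitals:
CCA1 (chr2:19245383-19245418, plus strand): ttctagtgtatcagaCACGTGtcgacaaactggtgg
ASG4 (chr1:190308-190380, plus strand): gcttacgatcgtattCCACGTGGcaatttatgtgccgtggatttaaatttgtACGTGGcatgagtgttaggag
CHIL (chr5:1563204-1563240, plus strand): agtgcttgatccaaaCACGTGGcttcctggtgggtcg
BETA-OHASE 2 (chr5:21337256-21337293, minus strand): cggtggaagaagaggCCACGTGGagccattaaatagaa
NPF6.4 (chr3:7629409-7629444, minus strand): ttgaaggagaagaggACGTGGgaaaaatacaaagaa
Members with a G-box had a median first step of 2.79-fold and second step of 2.21-fold, against 2.59-fold and 2.63-fold in the 62 without. Of the other motifs searched, ATGTAC stood in 20.8% of member windows (10.7% of tested genes), TTGACC, the W-box core, in 13.9% (14.3%), TTATCC, a sugar-repression element, in 15.3% (15.5%), CGTGTG, a brassinosteroid response element, in 8.33% (6.72%) and AAACCCTA, the telo-box, in 4.17% (5.58%). GATAAG, the I-box, stood in 8.33% (14.7%), CCGAC, the DRE/CRT core, in 6.94% (16.0%) and TGTCGG, an auxin response element, in 2.78% (5.52%). These are counts of letters and were not tested.

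**Figure D4:**
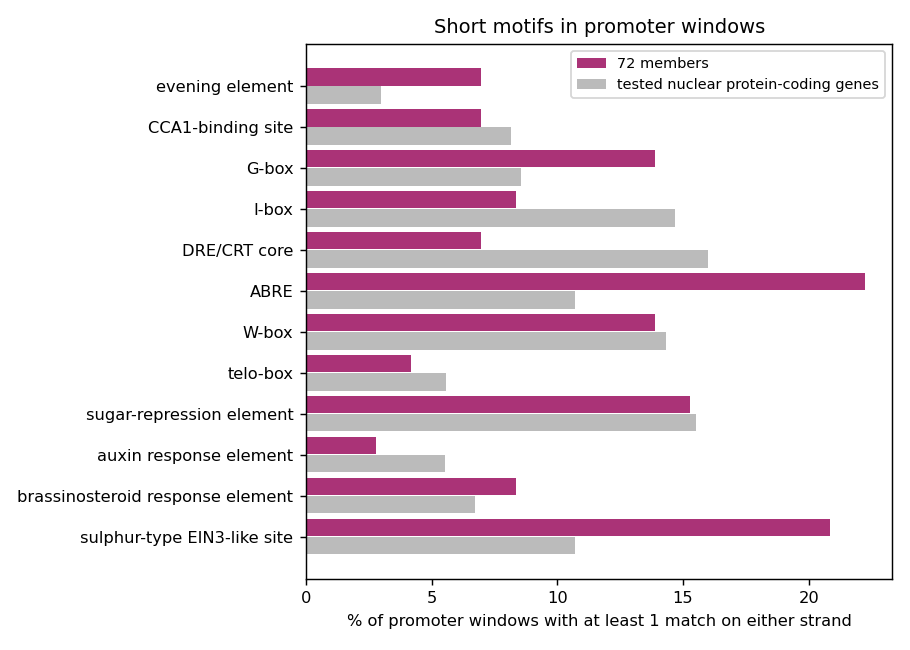
Share of promoter windows (250 bases before to 50 after the gene start) with at least 1 match on either strand for 12 short motifs, in the 72 genes and in all tested nuclear protein-coding genes. The widest differences are at the abscisic acid response element (22.2% against 10.7%), ATGTAC, marked as the sulphur-type EIN3-like site (20.8% against 10.7%), and the DRE/CRT core (6.94% against 16.0%).

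Flavonol genes were a further group. MYB111, also called PFG3, an activator of flavonol synthesis, had 13.3, 14.5 and 12.1 CPM in the untreated libraries, 3.04, 2.78 and 2.47 CPM in the mock libraries and 1.84, 1.56 and 1.11 CPM in the Alternaria libraries. It placed 72.1% of its log2 difference in the first step, the highest share among the 72. FLS1, flavonol synthase, had 24.0, 24.7 and 22.6 CPM in the untreated libraries, 8.18, 7.77 and 6.32 CPM in the mock libraries and 4.48, 3.05 and 2.75 CPM in the Alternaria libraries. Its mock and Alternaria libraries lay apart by less than its untreated and mock libraries. CHIL, a chalcone isomerase-like protein that aids chalcone synthase, had means of 40.4 ± 2.97, 19.0 ± 0.0905 and 7.86 ± 1.91 CPM, and 4CL3, a 4-coumarate:CoA ligase that feeds flavonoid synthesis, 58.2 ± 4.22, 18.8 ± 0.833 and 5.96 ± 0.780 CPM.

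Of 17 other flavonoid and anthocyanin genes, 5 fell and 4 rose from untreated to mock, and 6 fell and 2 rose from mock to Alternaria. The 5 became 3 without untreated replicate 2, untreated replicate 3, mock replicate 2 or mock replicate 3. UGT78D2, a flavonoid glucosyltransferase, fell in both, with log2 changes of -1.87 ± 0.10 and -0.48 ± 0.10 (edgeR, Benjamini-Hochberg adjusted p = 3.15e-07 and 0.000984). Chalcone synthase (TT4) and chalcone isomerase (TT5) also fell in both, with log2 -0.65 and -1.19 for TT4 and -1.11 and -0.72 for TT5. In the anthocyanin branch DFR and LDOX rose at the first step, with log2 changes of 1.89 ± 0.33 and 1.65 ± 0.29. MYB12, another flavonol activator, was under 1 CPM in every library and passed the test in neither comparison (edgeR, Benjamini-Hochberg adjusted p = 0.812 and 0.0588; log2 -1.03 and past the threshold in the second under upper-quartile scaling).

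Transport and assimilation of nitrogen and sulphur, and iron homeostasis, were represented by 7 members, among them APR2, described above. AMT1;2, an ammonium transporter, had 199.8, 212 and 169.6 CPM in the untreated libraries, 71.7, 70.2 and 73.0 CPM in the mock libraries and 20.5, 21.7 and 20.3 CPM in the Alternaria libraries. The mock libraries of this gene hardly varied among themselves, nor did the Alternaria libraries. NPF6.4 (AT3G21670), of the nitrate and peptide transporter family, had means of 420.3 ± 56.2, 196 ± 8.07 and 86.3 ± 1.40 CPM, and ProT3, a proline transporter, 6.14 ± 1.04, 1.90 ± 0.0782 and 0.680 ± 0.211 CPM. NAS4, a synthase of the metal chelator nicotianamine, had 30.0 ± 4.41, 11.6 ± 2.69 and 4.06 ± 0.260 CPM. The bHLH factors PYE (24.8 ± 3.26, 10.9 ± 0.308 and 4.98 ± 0.202 CPM) and bHLH34 (28.2 ± 3.05, 13.9 ± 1.12 and 7.46 ± 0.756 CPM) both regulate iron deficiency genes.

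Of 14 other sulphur deficiency genes tested, 8 fell from untreated to mock, and 2 fell and 4 rose from mock to Alternaria (4 and 4 under upper-quartile scaling). Without mock replicate 1 or Alternaria replicate 2, 1 fell at the second step. APR3 and APR1, the isoforms of APR2, fell at the first step, with log2 changes of -1.32 ± 0.10 and -1.02 ± 0.13. At the second, APR1 fell (log2 -0.41 ± 0.13; edgeR, Benjamini-Hochberg adjusted p = 0.0159), and APR3 had log2 -0.07 ± 0.10 (adjusted p = 0.564). APR1 missed the threshold there without mock replicate 1 or Alternaria replicate 2 (log2 -0.32 and -0.31), and APR3 passed it under upper-quartile scaling (log2 -0.25). APR3 libraries ran at 455, 374 and 428 CPM in the untreated libraries, 192, 163 and 163 CPM in the mock libraries and 184, 157 and 168 CPM in the Alternaria libraries, and its mock and Alternaria libraries overlapped. LSU2, a gene induced by low sulphur, fell in both (log2 -0.97 and -1.47), and SHM7 fell (log2 -1.71) and then rose (log2 0.66).

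Of 18 other iron deficiency genes, 3 fell and 4 rose at the first step and 7 fell and 6 rose at the second (10 and 5 under upper-quartile scaling). The iron-responsive bHLH38 had log2 0.00 ± 0.28 at the first step and fell at the second (log2 -3.93 ± 0.38; edgeR, Benjamini-Hochberg adjusted p = 2.32e-06). NAS1, the homologue of NAS4, rose (log2 0.94) and then fell (log2 -1.76), and FER1, an iron store, rose at the first step (log2 0.99). F6'H1 (AT3G13610), an enzyme of coumarin synthesis, rose in both (log2 2.47 and 4.11). Of 29 other NPF and NRT2 transporters 10 fell and 5 rose at the first step, and 10 fell and 11 rose at the second (12 and 9 under upper-quartile scaling). At the first step 6 fell without untreated replicate 3, and 3 rose without untreated replicate 2 or 3. PTR3 rose in both (log2 1.68 and 3.48). This list held 36 genes matched by gene name, so a family gene without such a name is not in it. The member AT5G62730 has the same annotated product as NPF6.4, the major facilitator superfamily, but was not matched to the list.

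Cell wall genes numbered 5. EXPA11, an expansin that loosens walls, had 77.5, 65.3 and 46.4 CPM in the untreated libraries, 23.6, 22.4 and 26.9 CPM in the mock libraries and 5.96, 10.5 and 8.41 CPM in the Alternaria libraries. Its untreated libraries spread from 46.4 to 77.5 CPM, all above the mock libraries. The pectin lyase-like genes AT1G60590, AT5G19730 and AT1G48100 had means of 138 ± 2.91, 43.6 ± 2.21 and 15.6 ± 0.598 CPM for the first, 63.3 ± 4.61, 29.5 ± 2.77 and 8.36 ± 1.11 CPM for the second and 28.6 ± 1.28, 10.8 ± 1.42 and 5.53 ± 0.463 CPM for the third. AT1G23205, of the invertase and pectin methylesterase inhibitor family, had 96.1 ± 16.1, 36.8 ± 2.16 and 9.71 ± 1.497 CPM. The median steps of the 5 genes were 2.61-fold and 2.93-fold.

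Of 13 other expansins, 5 fell and 2 rose from untreated to mock, and 8 fell from mock to Alternaria (7 with DESeq2). At the first step 3 fell without untreated replicate 2 or mock replicate 2, and 1 rose without mock replicate 3 or any untreated library. EXPA5 fell in both, with log2 changes of -0.71 ± 0.07 and -2.12 ± 0.08 (edgeR, Benjamini-Hochberg adjusted p = 2.38e-05 and 3.25e-09), while EXPA3 (EXP3) rose (log2 0.63) and then fell (log2 -1.38).

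Growth-linked lists without a member differed in how many genes fell at each step, where 14.1% of all tested genes fell at the first and 26.1% at the second. Of 5 GASA peptide genes, which respond to gibberellin, 2 fell and 1 rose at the first step, and 2 fell and 0 rose at the second. Of 19 brassinosteroid genes 5 fell and 3 rose at the first step, and 5 fell and 7 rose at the second. The 5 brassinosteroid genes that fell at the first step became 3 without untreated replicate 2. They became 2 without untreated replicate 3, without any 1 mock library or with no filter. All 14 fasciclin-like arabinogalactan genes tested fell from mock to Alternaria, and 3 fell from untreated to mock (1 without untreated replicate 2), with FLA9 at log2 -0.81 and -0.94. Of 18 aquaporins 11 fell at the first step and 14 at the second; the 11 became 6 without untreated replicate 3 or mock replicate 2 and 7 without mock replicate 1 or 3 or with no filter. Of 54 SAUR genes, named for their quick induction by auxin, 7 fell and 2 rose, then 29 fell and 9 rose; the 7 became 3 without untreated replicate 2, and the 2 became 1 without untreated replicate 3 and 0 without mock replicate 2 or 3. Of 34 wax and very-long-chain fatty acid genes 14 fell and 1 rose, then 21 fell and 7 rose, with KCS1, which elongates fatty acids, at log2 -0.78 and -1.39. Among 25 XTH wall-remodelling genes 4 fell and 4 rose, then 12 fell and 9 rose. The counts for 16 gibberellin synthesis and turnover genes were 5 and 1, then 6 and 5. For 15 type-A response regulator and cytokinin turnover genes they were 4 and 0, then 6 and 1. In 11 lipid transfer protein genes 3 fell and 4 rose, then 7 fell and 1 rose. Counts without single libraries are not given here for these last lists.

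**Figure D5:**
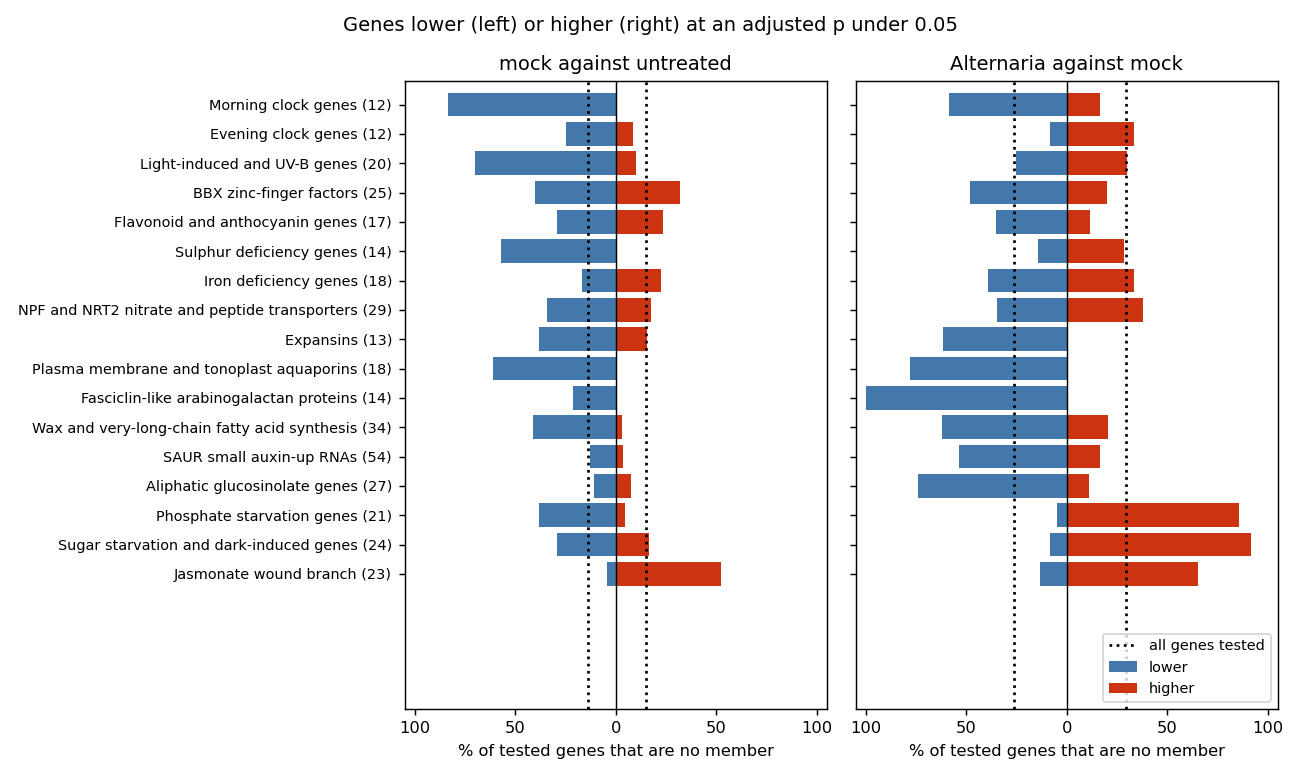
For 17 gene lists with the 72 genes left out, the share of tested genes lower (blue, to the left) and higher (red, to the right) at an adjusted p under 0.05, in mock against untreated leaves and in Alternaria against mock leaves; the number tested is in brackets. Dotted lines are the shares over all 22019 tested genes (14.1% lower and 15.1% higher on the left panel, 26.1% and 29.5% on the right). Morning clock genes reach 10 of 12 lower on the left panel, and sugar starvation genes 22 of 24 higher on the right.

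Plastid metabolism held 5 members. The beta-carotene hydroxylases BETA-OHASE 1 (BCH1) and BETA-OHASE 2 (BCH2), which make zeaxanthin, both belonged to the set. BETA-OHASE 1 had 309, 321 and 308 CPM in the untreated libraries, 129, 123 and 121 CPM in the mock libraries and 67.1, 58.5 and 63.0 CPM in the Alternaria libraries, with little spread in any group. BETA-OHASE 2 had means of 177 ± 7.18, 60.2 ± 5.49 and 31.0 ± 5.50 CPM. FAD4 (FADA), a plastid fatty acid desaturase, had 131 ± 3.91, 62.1 ± 2.11 and 27.5 ± 0.344 CPM, and the alpha carbonic anhydrase ACA1 166 ± 22.6, 79.9 ± 1.02 and 25.7 ± 2.56 CPM. With GBSS1, the first step of these 5 genes ranged from 2.08 to 2.95-fold and the second from 1.94 to 3.11-fold. The plastid genome's share of reads in these libraries of poly(A) RNA, given above, was also lower at each step. Its part in the levels of these genes was not tested.

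Members linked to hormones were BRS1, AIF1, SMXL8 and RHA2A. AIF1, a bHLH protein that acts against brassinosteroid-promoted growth, had 5.86, 7.70 and 6.33 CPM in the untreated libraries, 2.26, 3.30 and 2.00 CPM in the mock libraries and 1.24, 0.693 and 0.556 CPM in the Alternaria libraries. Its 3 groups were close at these low levels yet did not overlap. SMXL8 (AT2G40130), a repressor in strigolactone signalling, had 15.3 ± 3.79, 7.34 ± 0.261 and 2.81 ± 0.313 CPM, and RHA2A, a RING protein of abscisic acid signalling, 26.4 ± 5.64, 11.6 ± 0.3798 and 5.80 ± 1.03 CPM.

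Regulators of trichomes, meristems and organ size made up 5 members. TRY, a small MYB-like protein that limits trichome formation, had 10.1, 12.8 and 10.5 CPM in the untreated libraries, 5.89, 4.27 and 5.74 CPM in the mock libraries and 2.52, 1.698 and 2.16 CPM in the Alternaria libraries. GIS, a zinc-finger factor that promotes trichomes, had means of 14.5 ± 2.41, 4.84 ± 0.876 and 1.89 ± 0.153 CPM. BB, a ubiquitin ligase that limits organ size, had 38.5 ± 0.846, 17.6 ± 1.28 and 8.90 ± 0.816 CPM, the microtubule-linked TRM13 12.1 ± 2.08, 5.67 ± 0.2002 and 1.497 ± 0.291 CPM, and the meristem regulator FAF1 5.42 ± 0.803, 1.55 ± 0.3801 and 0.845 ± 0.376 CPM. The epidermis, dividing-cell, root, and vessel and companion-cell marker sums given above were all below the untreated range in mock leaves. The part of any of them in these genes was not tested. Of the 6 dividing-cell markers, 6 fell from untreated to mock, where 14.1% of all tested genes fell (edgeR, adjusted p under 0.05). From mock to Alternaria 0 fell and 0 rose.

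The other 37 members, some of them described above, covered many families. LEA3, a late embryogenesis abundant protein, had means of 111 ± 16.2, 26.5 ± 3.77 and 10.5 ± 0.833 CPM, and AT5G54130, a calcium-binding endonuclease/exonuclease/phosphatase family gene, 187 ± 30.1, 36.4 ± 3.72 and 18.4 ± 0.256 CPM, each with the larger step first. The uncharacterised genes AT5G55620 (122 ± 11.7, 52.5 ± 5.69 and 13.4 ± 0.117 CPM), AT2G17300 (41.6 ± 5.10, 18.5 ± 0.346 and 4.17 ± 0.361 CPM) and AT1G20070 (30.1 ± 2.72, 10.8 ± 1.25 and 2.94 ± 0.437 CPM) had the larger step second. AT3G48460 and RXW8, both annotated as GDSL lipases, had first steps of 2.59 and 2.78-fold and second steps of 3.82 and 2.14-fold. The annotated gene AT1G58525 overlaps RXW8, and the lipase name of RXW8 rests on the annotation alone. The alpha/beta-hydrolases AT3G24420, AT5G41900 and BRS1 had overall ratios of 17.7, 10.0 and 11.2-fold. MYB43, the other R2R3-MYB gene beside MYB111, had means of 10.5 ± 0.720, 4.62 ± 0.679 and 1.82 ± 0.241 CPM and a first step of 2.28-fold against 4.81-fold in MYB111. Over all 37 the first step ranged from 2.03 to 10.8-fold and the second from 1.71 to 14.5-fold.

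Several lists without a member had more rises than falls at the second step. Of 24 sugar starvation and dark-induced genes, 7 fell and 4 rose from untreated to mock and 2 fell and 22 rose from mock to Alternaria, with BT2 at log2 5.05 ± 0.34 in the latter. At the first step 4 fell without mock replicate 3, and 2 rose without untreated replicate 2 or mock replicate 2. Of 21 phosphate starvation genes 8 fell and 1 rose, then 1 fell and 18 rose (0 rose at the first step without untreated replicate 2), with SPX3 at log2 5.63 ± 0.25 in Alternaria leaves (edgeR, Benjamini-Hochberg adjusted p = 8.75e-09). Jasmonate wound genes rose in both comparisons, 12 of 23 at the first step and 15 of 23 at the second, with 1 and 3 lower (2 lower at the first step without untreated replicate 1). Among 12 defensin-like genes 0 fell and 4 rose, then 1 fell and 7 rose. Other lists without a member had more falls at the second step. Among 23 cold and dehydration genes 4 fell and 10 rose, then 13 fell and 4 rose. The 27 aliphatic glucosinolate genes had 3 falls and 2 rises, then 20 falls and 3 rises. Counts without single libraries are not given here for defensin-like, cold and glucosinolate genes.

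The 72 genes were spread over the 5 nuclear chromosomes much as tested protein-coding genes are, from 12.5% on chromosome 4 (15.3% of tested genes) to 26.4% on chromosome 1 (26.4%). The largest excess was on chromosome 3, at 23.6% against 19.8%. There were 7 pairs of members within 100 kb, the closest being ProT3 and AT2G36630, 6.82 kb apart with 4 genes between them. None was next to another member. Of 87 tested genes next to a member, 24 fell (27.6%) and 6 rose from untreated to mock, and 31 fell (35.6%) and 23 rose from mock to Alternaria. At the first step 15 fell without mock replicate 1, 15 without mock replicate 2 and 14 without untreated replicate 2, the last leaving 2 that rose, as did leaving out mock replicate 3. Of these neighbours 9 overlap the member, and as the labels do not say whether reads were counted by strand, those of overlapping genes cannot be assigned with certainty; among the other 78, 23 fell and 5 rose at the first step and 26 fell and 22 rose at the second. SPCH, the stomatal lineage factor beside TRY, fell in both comparisons, with log2 changes of -1.03 and -0.71 (edgeR, Benjamini-Hochberg adjusted p = 0.000370 and 0.00205). The members' transcripts had a median exon length of 1545 bases and 3 exons, against 1769 bases and 4 exons in tested protein-coding genes.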

How the data were processed

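Counts of reads per gene were deposited for 9 libraries, 3 per group. Per the labels' protocols, poly(A) RNA was isolated from 3 µg of total RNA and made into libraries with the ScriptSeq v2 kit, pooled and size-selected at 250 to 650 bp. Per the submitters' processing notes, the authors used FastQC, TopHat2 2.0.12, HTSeq and DESeq2 1.8.2 with the TAIR10 genome; no source gives HTSeq's version or strand setting. Comparison tables deposited by the authors were left unused.

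Rows that name no gene (7.73 to 11.2% of counts per library) were left out. CPM is the count over the sum of the gene rows, times 1000000. Tests on genes outside the set used edgeR 4.0.16 (quasi-likelihood, TMM scaling, filterByExpr with a minimum count of 10, R 4.3.3) in 1 model of the 9 libraries with 6 residual degrees of freedom and 22019 genes, with Benjamini-Hochberg adjustment over all of them. The biological coefficient of variation was 0.107. A log2 change is given with its standard error (SE), and "fell" and "rose" mean an adjusted p under 0.05. DESeq2 1.42.0, other scalings and filters, a replicate block and leaving out each library were alternatives. Tables and plots were made with Python 3.11.15, numpy 2.4.6, pandas 2.3.3, scipy 1.17.1 and matplotlib 3.10.9. On simulated counts for the 22019 genes, changes of 1.5, 2 and 4-fold were put into a part of them. The mock against untreated test recovered 83.6, 97 and 98.5% of these changed genes, with 6.06% of calls false. For Alternaria against mock these were 76.1, 97 and 100%, with 6.19% false. The level of the changed genes and their share of the 22019 are not given here. The rates are thus not to be read as holding for low-count genes, or where as many genes change as were called above.

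The members, and 25 gene lists with 713 distinct genes (501 tested and not members, 11 members in 7 lists), were chosen with earlier results of these data known, and the functional groups after the members were known. Of the list names 32 matched no single gene and 6 genes were dropped for a shared short name. By rule, the text names the 12 members with the largest overall ratio, the 8 highest in untreated leaves, those in a list or in a family with another member and those at the limits, and may name up to 4 genes of a list with the largest changes. Every other member or list gene named, such as LEA3 and AT5G54130, was chosen after its values were seen. Names and positions come from RefSeq TAIR10.1, which holds 28932 of the 33610 genes (86.1%). The labels do not say whether libraries came from separate plants, so p-values measure the spread between these samples.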

Additional observations from a re-analysis of the deposited data

How the results depend on the processing

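The number of genes that met the rule was 72. It was 81, 80 and 111 with CPM scaled by TMM, by DESeq2's size factors (RLE) and by upper quartiles, 77 with organelle genes left out of the total, 87 and 59 with a minimum of 1 and 10 CPM, and 54 and 243 with 2-fold and 1.5-fold at both steps; all 72 were kept under each of the 3 scalings. Leaving out 1 library gave 65 to 81 members, with 59 kept in every case. Leave-outs gave 2153 to 3131 genes lower and 2119 to 3513 higher in mock against untreated leaves and 4921 to 5892 and 5794 to 6678 in Alternaria against mock leaves. For the pathway lists the first comparison gave 116 to 151 lower and 49 to 80 higher, and for genes next to a member 14 to 24 lower and 2 to 7 higher; the cause was not tested. Leaving out overlapping neighbours was chosen after seeing the data. Of the values for single genes and lists, 163 moved, 95 lost and 9 gained a call, none reversed, and 6129 kept to the main value; 54 of those that moved were step sizes of members under upper-quartile scaling. The replicate numbers do not pair the samples (r of deviations of 9 same-number pairs, -0.0652 to 0.0341), and with a replicate block 2875 genes were lower and 3145 higher in mock against untreated leaves, 5603 and 6337 in Alternaria against mock leaves, and 6776 and 7166 in Alternaria against untreated leaves. DESeq2 gave 3002 and 3434, 5648 and 6282, and 6724 and 7176.

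Precision is limited by 3 libraries per group and, for the 12 members with an Alternaria mean under 1 CPM, by depth. The mock liquid, hour of harvest and harvest day of the controls are not in the labels, so a part of spraying and of time of day in the first step, and of infection and of time of day in the second, cannot be told apart. CPM is relative: a higher share of reads in other genes lowers it.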

Other observations

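Within groups, the order of the libraries was uneven over the 72 genes. Untreated replicate 3 was the highest of its group in 8 members (11.1%), against 30.1% of the other 14130 genes at 5 CPM in untreated leaves. Mock replicate 1 was the highest of its group in 44 members (61.1%, against 40.0% of the other genes) and mock replicate 2 in 10 (13.9%, against 24.9%). Among the Alternaria libraries, replicate 1 was the highest in 32 members (44.4%, against 45.4% of the other genes). The members share these libraries, so their order is not evidence from 72 separate cases.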
